A study of Homo sapiens with 4 samples.

Results

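The RNA of cells labelled Caco-2 was compared after BORIS siRNA and after a negative control siRNA, on 2 of the 4 arrays of a study that treated 2 established colorectal cancer lines, Caco-2 and HCT116, in the same way. Cells were transfected for 3 days with Lipofectamine RNAiMAX as the carrier, RNA was taken with TRIzol, and labelled cRNA from each of the 4 cultures was hybridised to 1 Affymetrix PrimeView array. The siRNA sequence is not given in the sources used here, and no other treatment or genetic change of the cells is named in the labels. A gene was taken through its brightest probe set paired with that gene alone, and counted as expressed when it reached the median of its array on at least 1 of the 2 Caco-2 arrays. That gave 10389 expressed genes of 18132 measured. Every difference below is the log2 value with BORIS siRNA minus the log2 value with control siRNA, so a difference of 1 is 2-fold. Each group held 1 array. There is therefore no spread between replicates to set a difference against, and nothing was tested; 1 array per arm is the limit on the precision of every value.

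The gene CTCFL encodes BORIS, which shares its zinc fingers with CTCF almost entirely but is made in male germ cells and switched on in some tumours. CTCF itself binds insulators, holds cohesin at loop anchors and is made in almost all cells. Caco-2 cells were taken from a colon carcinoma and are known for turning into enterocyte-like cells with a brush border once a culture is dense, when they make apolipoproteins and fatty acid binding proteins.

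The label was checked first against markers of intestinal epithelium, of which 10 of 16 measured were expressed. The epithelial genes EPCAM (12.83 with control and 12.82 with BORIS siRNA), KRT8 (13.40 and 13.47) and KRT19 (12.13 and 12.32) were among the brightest on the arrays. Intestinal KRT20 read 11.59 and 12.04, the lectin gene LGALS4 read 11.36 and 11.25, and the microvillus gene VIL1 read 9.57 and 9.33, where the HCT116 arrays gave at most 5.72, 4.03 and 3.68. The intestinal cadherin gene CDH17 (4.24 and 3.94), GPA33 (4.43 and 4.31), CDX1 (4.85 and 4.39), FABP1 (2.93 and 3.04) and APOA1 (4.88 and 4.70) were at background on both arrays, which goes against the label in part, because Caco-2 is known to make several of them. Background is the level that 95% of the probe sets for olfactory receptors stay under, 5.06 on the control array and 4.82 on the BORIS siRNA array. APOB, AFP and FABP2 were at background too. The cells are therefore called the cells labelled Caco-2 below, and no other identity is given to them. Of markers of other cell types, 0 of 10 fibroblast, 4 of 10 blood, 3 of 8 endothelial and 3 of 8 neuronal genes were expressed. The summed linear level of each of these lists, on the log2 scale, was 7.01 and 6.95 for fibroblast, 13.30 and 13.16 for blood, 9.85 and 9.71 for endothelial, and 10.00 and 10.51 for neuronal markers with control and BORIS siRNA. The blood sum is nearly all LYZ, which read 13.26 and 13.12, while PTPRC, CD3D, MS4A1 and CD14 were at background. The higher neuronal sum comes from TUBB3, which read 9.32 and 10.16 on a probe set that can bind other tubulins. All the other neuronal markers were lower with BORIS siRNA.

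The target of the siRNA could not be read. CTCFL has 7 probe sets, of which 6 lay below background on both arrays, at 2.57 to 4.76, and the remaining 1 read 5.07 and 5.09. The labels of the siRNA arms thus have no check from CTCFL itself. The paralog CTCF read 9.19 with control and 9.16 with BORIS siRNA, a difference of -0.03.

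At 2-fold or more, 42 genes were higher (0.404% of the expressed genes) and 5 were lower (0.0481%) with BORIS siRNA. At 1.5-fold or more, 289 were higher (2.78%) and 118 were lower (1.14%). A dim gene that reached the median on 1 array only had to differ in that direction to be counted: 21 of the 42 higher genes reached it with BORIS siRNA only. With the mean of the 2 arrays held to the median instead, a filter added after seeing the data, 29 genes were higher and 4 lower at 2-fold or more. The 2 arrays were otherwise close: 81.0% of expressed genes lay within 1.25-fold, and the median size of a difference was 0.15, against 0.25 in HCT116. Poly-A spike-ins differed by a median of -0.06 and hybridisation controls by 0.00, while in HCT116 the spike-ins differed by 0.82. The difference between the 3' and 5' probe sets of ACTB was 1.05 with control and 0.97 with BORIS siRNA.

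**Figure D1:**
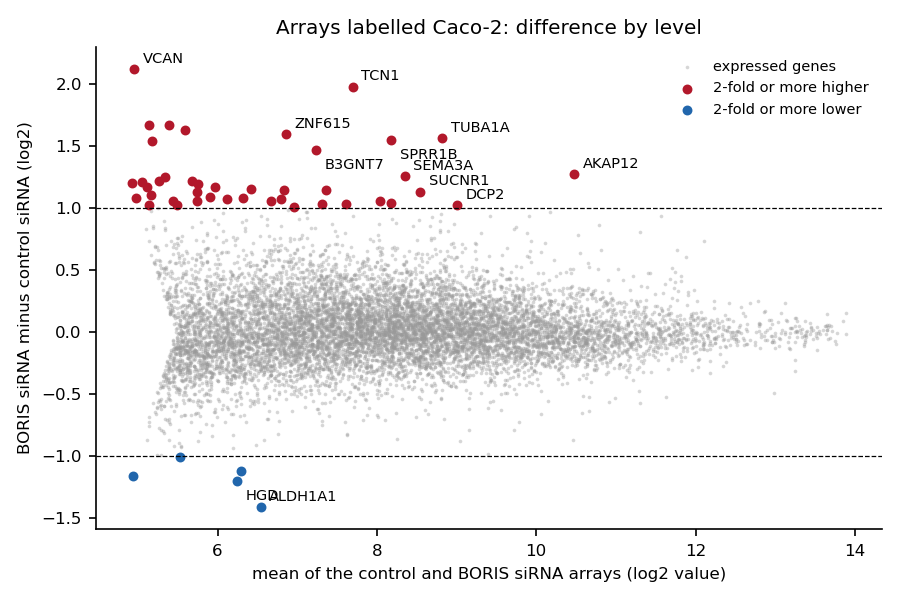
Each point is an expressed gene, placed by its mean log2 value over the 2 arrays (horizontal) and by its log2 difference, BORIS siRNA minus control siRNA (vertical), with dashed lines at 2-fold. The 42 genes higher at 2-fold or more (red) crowd at the dim end, with a median level of 6.04 against 8.06 for all expressed genes, and the 5 lower genes (blue) have a median level of 6.25.

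TCN1 had the largest difference among genes above background on both arrays. TCN1 encodes haptocorrin, a secreted carrier that binds vitamin B12. Its 1 probe set read 6.71 with control and 8.69 with BORIS siRNA, a 3.94-fold difference, and in HCT116 it was also higher with BORIS siRNA, at 7.15 and 8.03. The other genes of B12 binding and entry differed little: TCN2, the carrier that delivers the vitamin to tissues, read 7.44 and 7.30, and the receptor gene CD320 differed by 0.00. Of the 6 expressed genes in that role, 3 were higher and 3 lower, and their median of 0.06 turned sign when probe sets of a gene were averaged, when those of the _x_at and _s_at kinds were left out, and without a filter.

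The tubulin gene TUBA1A read 8.04 and 9.60, a 2.95-fold difference, and its other probe set differed by 1.60. Tubulins are close copies of each other and the probe sets of TUBA1A can bind relatives, so its identity is uncertain. TUBB3, the neuronal beta tubulin, read 9.32 and 10.16, on a probe set of that kind too. TUBB2A was lower, at 10.93 and 10.40, and among the 13 expressed tubulin genes 5 were higher and 8 lower. The microtubule-destabilising gene STMN3 read 6.00 and 5.08, a difference of -0.93 that became -0.18 without _x_at and _s_at probe sets.

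AKAP12, a scaffold that holds protein kinases A and C near the membrane, read 9.84 and 11.11, and its other probe set differed by 1.14. SUCNR1, the receptor for succinate, read 7.98 and 9.11. B3GNT7, a glycosyltransferase that extends keratan sulfate and mucin-type chains, read 6.50 and 7.97, with no other probe set above background. LGR6, a receptor for R-spondins, read 5.07 and 6.29, and LRRN4 read 5.39 and 6.56. XRCC4, the partner of DNA ligase IV in end joining, read 6.79 and 7.93, and its HCT116 values, 8.74 and 9.89, gave a difference of 1.15 beside 1.14 here.

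VCAN, the matrix proteoglycan versican, had the largest difference of all, but it depended on the probe set. The representative probe set read 3.89 with control, below background, and 6.01 with BORIS siRNA, so the difference is at least 0.95. The 6 other probe sets above background on at least 1 array were all higher, by 0.24 to 1.72 with a median of 1.01. Among them the probe set that is brightest on these 2 arrays differed by 0.24. It alone was above background with control siRNA, so the rest had to be higher to be counted. Of the 42 higher genes, 15 were at background with control siRNA. Set against background, the others in the top 20 were higher by at least the following: the carrier gene SLC16A12 by 1.17, TRIM29 by 1.34, the fibrinogen-like gene FGL2 by 0.90, the homeobox gene PROX1 by 0.81, the formin gene FMN1 by 0.59, ZNF681 by 0.91, ZNF117 by 0.64, ITGA1 by 0.89 and IGFL1 by 0.47.

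The other higher genes, given for completeness outside the naming rule, were in order of difference GULP1, ITGB8, XRCC4, SUCNR1, SORBS2, FANK1, SLC16A4, IGIP, MAML2, KCTD20, MEX3B, DOCK4, GBP2, PLCB1, ADGRF1, MEX3A, HAS3, NTN4, RPGR, CGNL1, DCP2 and PHACTR2, from 1.16 down to the 2-fold threshold. They include both paralogs MEX3A (7.66 and 8.70) and MEX3B (6.26 and 7.33), which encode RNA-binding proteins. DCP2, the catalytic subunit that removes the mRNA cap, read 8.50 and 9.52. Just outside the threshold stood ZNF248 (4.75 and 5.75), the kinase gene PRKACB (6.40 and 7.38) and PLK2, a p53-responsive kinase gene (9.68 and 10.65).

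**Figure D2:**
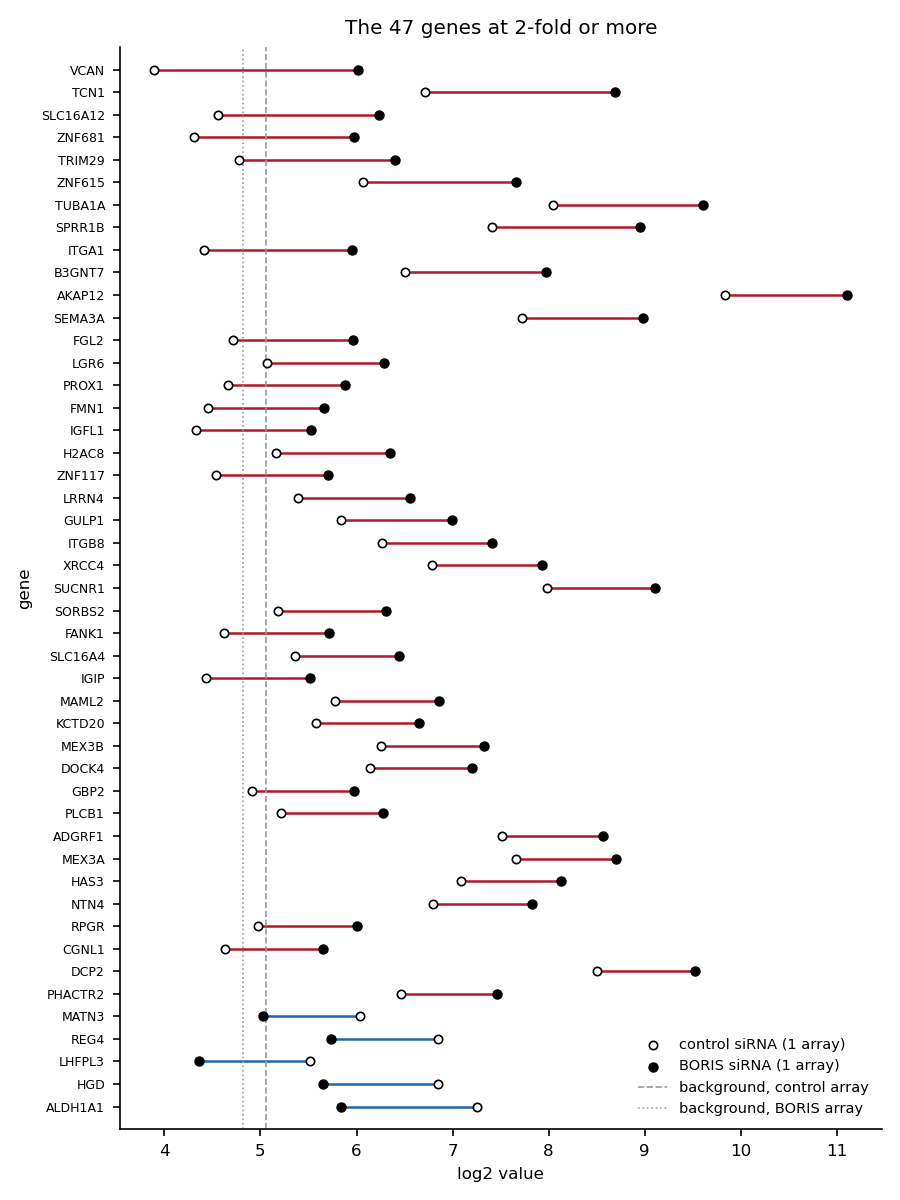
Open circles give the log2 value with control siRNA and filled circles that with BORIS siRNA, 1 array each, for the 47 genes at 2-fold or more, ordered by difference, with red lines for higher and blue for lower genes. Dashed and dotted vertical lines mark background on the control (5.06) and BORIS (4.82) arrays; 15 of the 42 higher genes start at or below the dashed line.

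Other probe sets gave a second reading of 25 of the 47 genes. Of the 42 higher genes, 23 had another probe set above background on at least 1 of the 2 arrays. In 22 of these all such probe sets were higher too. Their median reached 1.5-fold in 21 genes and 2-fold in 8. HAS3, a hyaluronan synthase gene, was the exception: its representative probe set read 7.09 and 8.13, and its other 2, dimmer at 5.46 and 4.94 with control siRNA, differed by -0.07 and 0.13. KCTD20 stood at 0.37 by the median of its other probe sets. For comparison, the median of the other probe sets had the same sign as the representative in 73.3% of the 6792 expressed genes that have any. A probe set above background with BORIS siRNA only had little room to be lower, as for ZNF681 (4.40 and 5.17) and FMN1 (4.18 and 5.33). The agreement among the higher genes is thus partly fixed by the filter, and the 73.3% covers genes not picked for a large difference. A further 19 of the 42 genes had no other probe set above background, 9 of them because they have 1 in all. In HCT116 22 of the 42 higher genes were expressed, and 15 of these were higher there, where 44.2% of the 9855 genes expressed in both lines were higher.

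**Figure D3:**
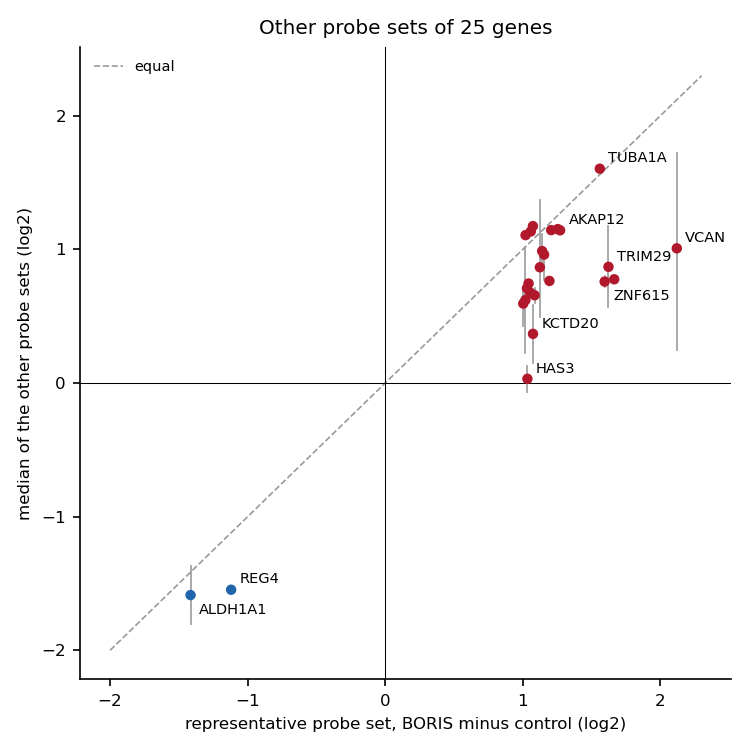
Each point is 1 of the 25 genes at 2-fold or more that have another probe set above background, placed by the log2 difference of the representative probe set (horizontal) and the median log2 difference of the others (vertical), with grey lines from the lowest to the highest of the others. All 25 points lie on the side of the representative, from HAS3 near 0 to TUBA1A at 1.60 and down to ALDH1A1 at -1.59. Above background means on at least 1 of the 2 arrays, so probe sets that passed with BORIS siRNA only had little room to be lower.

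The lower genes were led by ALDH1A1, a retinaldehyde dehydrogenase widely used to mark colon stem cells. It read 7.25 with control and 5.84 with BORIS siRNA, a 2.67-fold difference, and its other 2 probe sets differed by -1.80 and -1.37. HGD, which opens the ring of homogentisate in tyrosine breakdown, read 6.85 and 5.65 on a probe set that can bind related transcripts. REG4, a secreted lectin of mucus-secreting and enteroendocrine cells, read 6.85 and 5.73, and its other probe set differed by -1.55. MATN3, a cartilage matrix gene, read 6.04 and 5.03. LHFPL3 read 5.52 and 4.36, at background with BORIS siRNA, so it was lower by at least 0.70, given as a bound of -0.70. None of these 5 genes was expressed in HCT116.

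These genes had relatives on the lists that moved less. Of 14 expressed aldehyde dehydrogenases, 6 were higher and 8 lower, with a median of -0.06. ALDH3A1 read 6.98 and 6.28, and ALDH3A2, which oxidises fatty aldehydes, read 9.81 and 9.38. In the list of phenylalanine and tyrosine breakdown, which holds HGD, 7 of 10 expressed members were lower (49.4% of all expressed genes were). The median was -0.12, and 2 were lower at 1.5-fold or more, where the background is 1.14%. The 2 are HGD, the gene that led to this list, and DDC, so that share is no separate result about the pathway. DDC, which makes dopamine and serotonin, read 9.19 and 8.49 and its other 2 probe sets were lower by -0.61 and -1.07, while FAH, the last enzyme of the pathway, read 8.95 and 8.39 and FAHD2A 8.08 and 7.57.

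Among goblet cell and mucus genes, REG4 was joined by TFF1, a trefoil peptide gene (6.20 and 5.32), and by MUC13, a transmembrane mucin gene (8.68 and 7.82, with its other probe set at -0.995). TFF1 passed the filter with control siRNA only, where a member had to be lower to pass. The trefoil gene TFF3, which did not pass the filter, was higher at 4.23 and 5.08, at background with control siRNA. The list as a whole was split, with 8 of 14 expressed members higher, 6 lower, and a median of 0.02 that turned sign after quantile normalization and without _x_at and _s_at probe sets. The gel-forming mucin gene MUC2 was at background on both arrays. Of intestinal transcription factor genes, NR5A2 read 6.61 and 5.78, CDX2 read 5.77 and 5.19, and SOX4 was higher at 11.44 and 12.09, with its 6 other probe sets at 0.76 to 0.91. CDX2 and NR5A2 lie within 2 log2 units of background, and olfactory receptor probe sets, which stand for no signal, differed by a median of -0.12.

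Metallothioneins, small cysteine-rich proteins that bind zinc and copper and are induced by metals through the factor MTF1, were the list with the lowest median. The 7 expressed members of the list are metallothionein genes and MTF1, the gene of the factor, which differed by only -0.004. All 7 were lower, where 49.4% of all expressed genes were lower and 50.5% higher. Their median was -0.60 against 0.00 for all expressed genes, and 4 of 7 were lower at 1.5-fold or more, where the background is 1.14%. MT1H passed the filter with control siRNA only, and the median of the other 6 was -0.55. MT1G read 9.89 and 8.90, and its other 2 probe sets differed by -1.34 and -0.77. MT1X read 9.48 and 8.60, MT1F 7.68 and 6.93, and MT1H 5.63 and 5.03. MT1E (10.12 and 9.78) and MT2A (10.80 and 10.46) differed less, and a second MT2A probe set was higher by 0.44. MTF1 itself read 8.65 and 8.64. The metallothionein genes, unlike MTF1, sit side by side on chromosome 16 and are nearly identical in sequence. Their probe sets, most of them of the _x_at or _s_at kind, may read several of them together, so the 7 values are not 7 separate measurements. In HCT116 the median of the 6 expressed members of the list was -0.53, with 5 lower and 1 higher. The higher one was MT1G, at 6.81 and 7.03.

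The promoters of MT1X, MT1H and MT2A, the expressed metallothionein genes that the RefSeq promoter table holds, are shown because the family was lower together, with the core of the metal response element in capitals. The windows are the 250 bases before the start of each RefSeq gene on GRCh38.p14, for MT1X at chr16:56682220-56682469, MT1H at chr16:56669564-56669813 and MT2A at chr16:56608334-56608583, all on the plus strand. The core was searched as TGCACNC or TGCGCNC on both strands, and overlapping matches were counted as 1.
MT1X: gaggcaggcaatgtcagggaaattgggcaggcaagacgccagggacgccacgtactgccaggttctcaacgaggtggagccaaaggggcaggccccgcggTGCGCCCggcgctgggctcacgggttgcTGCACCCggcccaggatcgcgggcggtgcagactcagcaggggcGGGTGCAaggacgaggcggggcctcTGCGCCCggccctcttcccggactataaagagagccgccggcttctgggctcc
MT1H: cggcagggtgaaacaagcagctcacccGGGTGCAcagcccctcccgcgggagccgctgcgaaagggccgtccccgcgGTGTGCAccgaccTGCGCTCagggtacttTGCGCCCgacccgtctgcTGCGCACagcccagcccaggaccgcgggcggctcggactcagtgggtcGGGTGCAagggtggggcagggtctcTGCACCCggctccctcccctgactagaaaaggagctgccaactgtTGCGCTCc
MT2A: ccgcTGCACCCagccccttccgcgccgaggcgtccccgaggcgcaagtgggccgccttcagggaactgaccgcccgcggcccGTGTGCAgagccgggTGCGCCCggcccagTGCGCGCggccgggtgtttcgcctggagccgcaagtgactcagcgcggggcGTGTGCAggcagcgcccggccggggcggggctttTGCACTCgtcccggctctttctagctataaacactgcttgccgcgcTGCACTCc
The core was matched 4 times in MT1X, 8 times in MT1H and 7 times in MT2A. It was matched at least 1 time in 33.6% of 8626 promoters of expressed genes and 2 times or more in 8.57%. Of the 3, MT1X has the fewest matches and the largest difference, and MT1H has the most matches and lies between the other two. A match describes these letters only.

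The cornified envelope list held several of the larger differences. The envelope is the cross-linked shell of stratified epithelium and is not typical of colon. The list also takes in genes that are not structural parts of this shell, such as TRIM29, S100A2 and SERPINB5. Of 24 measured members 11 were expressed, with a median of 0.65. TRIM29, SPRR3 and EVPL among them passed the filter with BORIS siRNA only, where a member had to be higher to pass. The 8 others, 6 higher and 2 lower, had a median of 0.29, and 3 of them were higher at 1.5-fold or more. Of all expressed genes 50.5% were higher, and 2.78% were higher at 1.5-fold or more. SPRR1B, a small proline-rich envelope protein, read 7.41 and 8.95. SPRR1A, its neighbour, read 8.08 and 8.73, with its other probe set at 0.45, and the 2 genes are close copies. S100A2 read 6.66 and 7.32, and 8.24 and 9.36 in HCT116. The plakin gene PPL read 9.42 and 9.84, and its 3 other probe sets differed by 0.31 to 0.59. TRIM29, SPRR3 (4.67 and 5.65) and EVPL (5.00 and 5.70) were at background with control siRNA. IVL and TGM1, which define the envelope, were at background on both arrays, and without a filter on dim genes the median of the 24 was 0.047. SPRR1A, S100A2 and PPL were named after their values had been seen.

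The windows upstream of the most changed bright genes of this list are shown with the AP-1 site TGANTCA in capitals, a motif known from work on envelope genes. The site reads the same on both strands. The windows are chr1:153030953-153031202 for SPRR1B and chr1:152983831-152984080 for SPRR1A, on the plus strand, and chr1:153565845-153566094 for S100A2, on the minus strand and shown as that strand reads, all from RefSeq on GRCh38.p14.
SPRR1B: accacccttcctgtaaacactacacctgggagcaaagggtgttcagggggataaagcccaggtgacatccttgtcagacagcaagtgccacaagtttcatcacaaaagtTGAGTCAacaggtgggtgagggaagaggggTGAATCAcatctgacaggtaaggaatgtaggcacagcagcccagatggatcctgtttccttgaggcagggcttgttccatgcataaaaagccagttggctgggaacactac
SPRR1A: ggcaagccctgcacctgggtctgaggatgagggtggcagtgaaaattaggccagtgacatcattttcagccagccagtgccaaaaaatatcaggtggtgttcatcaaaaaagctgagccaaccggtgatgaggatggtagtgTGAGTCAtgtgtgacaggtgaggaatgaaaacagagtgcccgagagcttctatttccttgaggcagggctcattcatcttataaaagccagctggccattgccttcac
S100A2: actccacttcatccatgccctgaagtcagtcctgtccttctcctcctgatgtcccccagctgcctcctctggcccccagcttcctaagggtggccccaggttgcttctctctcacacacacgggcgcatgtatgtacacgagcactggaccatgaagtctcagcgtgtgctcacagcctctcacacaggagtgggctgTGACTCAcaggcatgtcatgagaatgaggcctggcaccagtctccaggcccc
The site was found in 10 of the 16 genes of the list with a RefSeq promoter window, against 3.76% of 8626 promoters of expressed genes. They include 5 of the 7 expressed members, SPRR3 among them, and 5 of the 9 that were not expressed. SERPINB5 holds it and differed by 0.08, and IVL holds it and was at background.

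Cell adhesion genes were higher as several groups. Of 11 integrin genes 9 were higher, and the median was 0.33, also without the 2 that passed the filter with BORIS siRNA only. ITGA1, the collagen-binding alpha chain, read 4.41 and 5.95, ITGB8, which frees TGF-beta from its latent complex, read 6.26 and 7.41, and ITGA3 read 7.73 and 8.09. As means over all their probe sets ITGB8 stood at 0.38 and ITGA3 at 0.03. In adherens junctions and desmosomes 11 of 15 members were higher, with a median of 0.22. PERP, a desmosome-linked gene, read 10.36 and 11.22, the desmocollin gene DSC2 8.69 and 9.29, and the E-cadherin gene CDH1 7.01 and 7.64. Tight junction genes stood on the other side, with 11 of 14 lower and a median of -0.09. CLDN23 was the lowest, at -0.35, and TJP1, the scaffold ZO-1, was higher by 0.24.

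Of 30 guidance genes, which steer axons and also tumour cell movement, 22 were higher, and the median was 0.25. SEMA3A, a secreted repellent, read 7.73 and 8.98, with its other probe set at 1.15, and in HCT116 it read 5.59 and 6.66. NRP1, its receptor, read 6.58 and 7.48, and its other 2 probe sets differed by 0.54 and 1.24. SEMA3C read 8.57 and 9.28. PLXNA1, the signalling partner of neuropilin, read 7.69 and 8.37, but its other probe set differed by -0.36. Among semaphorins and their receptors 12 of 19 were higher with a median of 0.16, which turned sign without a filter. Among ephrins and their receptors 10 of 11 were higher with a median of 0.27, led by EFNA5 (7.32 and 7.94) and EPHB3 (6.54 and 7.07).

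Chromatin genes were mostly higher by small amounts. Of 33 expressed nucleosome remodellers, 30 were higher, 3 lower, and the median was 0.23, where 50.5% of all expressed genes were higher. Their median genomic length was 86090 bases, and of expressed genes 84879 to 139794 bases long 66.4% were higher. Of the 33, BAZ1A and SMARCA1 were higher at 1.5-fold or more, where the share of all expressed genes is 2.78%. BAZ1A, the ACF subunit, read 8.49 and 9.30, with its 3 other probe sets at 0.66 to 0.98. SMARCA1, the SNF2L ATPase, read 8.60 and 9.32, with its 4 others at 0.74 to 0.88, and both were higher in HCT116 too, by 0.54 and 0.74. BPTF, the largest NURF subunit, read 8.47 and 8.97, and in HCT116 it was lower, at 7.99 and 7.69. Of 15 cohesin genes, whose ring CTCF stalls on DNA, 12 were higher, and the median was 0.22. RAD21 read 11.56 and 11.91, STAG2 9.59 and 9.94, and SMC1B, the germ-line subunit, 4.92 and 5.76, at background with control siRNA. Histone acetylation genes were split, 14 higher and 15 lower. Of 11 expressed replication-dependent histone genes 8 were higher, and the median was 0.14. H2AC8 among them passed the filter with BORIS siRNA only, where a gene had to be higher to pass. The median of the other 10 was 0.08. H2AC8, a core histone gene, read 5.16 and 6.35, with its other probe set at 0.76, and as 1 of many near-identical H2A copies it is uncertain.

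Numbered zinc finger genes, most of which encode repressors of transposons and genes through KAP1, were the largest list. Of 278 expressed, 195 were higher and 83 lower, where 50.5% of all expressed genes were higher, and the median was 0.16. At 1.5-fold or more 28 were higher and 2 lower, against 2.78% and 1.14% of all expressed genes. Of the 28, 8 passed the filter with BORIS siRNA only, and the median of the 255 that passed on both arrays was 0.15. ZNF615 read 6.06 and 7.66, with its other 2 probe sets at 0.72 and 0.80, and ZNF184, named after its value had been seen, read 6.63 and 7.60 and in HCT116 6.60 and 7.40. ZNF681 (4.31 and 5.98) and ZNF117 (4.53 and 5.70) were at background with control siRNA. ZBTB genes (20 of 30 higher, median 0.18) and ZSCAN and ZKSCAN genes (10 of 16 higher, median 0.18) stood at like values, with ZKSCAN1 at 8.23 and 9.09. Many of these genes are near copies, so their probe sets may share signal.

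**Figure D4:**
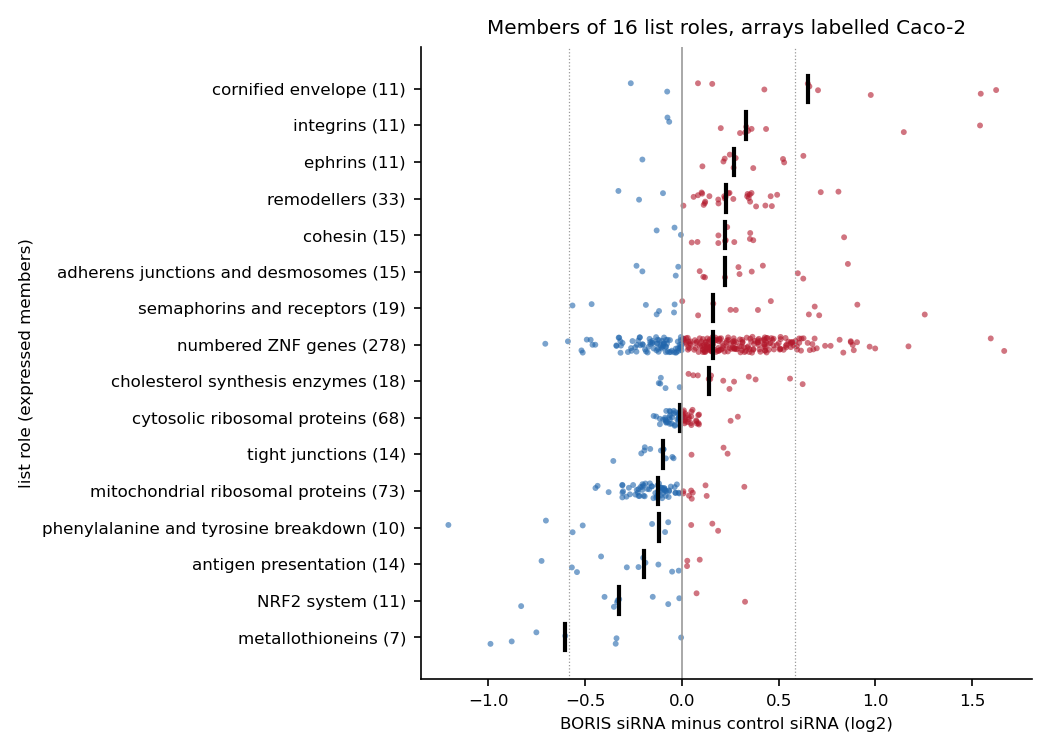
Each point is an expressed member of 1 of 16 list roles, placed by its log2 difference, BORIS siRNA minus control siRNA, with red for higher and blue for lower members, a black bar at the median and dotted lines at 1.5-fold. The cornified envelope list has a median of 0.65, or 0.29 without the 3 that passed the filter with BORIS siRNA only. The metallothionein list, which includes MTF1, has one of -0.60, and the 73 mitochondrial ribosomal protein genes sit to the left of 0 in 64 cases.

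Genes of defence against oxidants were mostly lower. In the NRF2 system 9 of 11 were lower with a median of -0.32. HMOX1, heme oxygenase, read 8.03 and 7.20, with its other 2 probe sets at -0.67 and -0.49. The NRF2 inhibitor gene KEAP1 read 8.97 and 8.62, and SQSTM1, which sequesters KEAP1, 12.35 and 12.01. BLVRB, which acts after heme oxygenase, read 9.31 and 8.91, and NFE2L2, the gene of NRF2, differed by -0.01. In glutathione metabolism 9 of 12 members were lower with a median of -0.18, and among iron genes 8 of 11 with a median of -0.15.

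Of 14 expressed antigen presentation genes, 11 were lower, and the median was -0.19. MICB, a stress ligand for NK cells, read 7.96 and 7.24, with its 3 other probe sets at -0.89 to -0.45. The immunoproteasome genes PSMB10 (9.71 and 9.14) and PSMB9 (5.66 and 5.12) and the peptide transporter gene TAP1 (7.69 and 7.27) were lower, while B2M and HLA-B each differed by 0.03. Of 19 expressed targets of the interferon factor ISGF3, 11 were lower, with a median of -0.16 that turned sign without _x_at and _s_at probe sets. Among interferon signalling genes 8 of 12 were lower (median -0.17).

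Of 73 mitochondrial ribosomal protein genes, 64 were lower and the median was -0.12, with 0 past 1.5-fold. MRPL2 read 7.93 and 7.49, MRPL55 9.19 and 8.76, MRPL34 10.73 and 10.35, and MRPS6 was higher at 9.13 and 9.45. The 68 cytosolic ribosomal protein genes were split, 31 higher and 37 lower, with a median of -0.01. Of 75 oxidative phosphorylation genes, 55 were lower and the median was -0.06, which was 0.01 after the difference typical of genes of like genomic length was taken off.

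The differences moved with gene length over all expressed genes. These were ranked by genomic length and cut into 10 bins of equal size. In the bin of the shortest genes the median difference was -0.10 and 30.3% of genes were higher, and in the bin of the longest it was 0.14 and 72.7% were higher. In HCT116 the same bins stood at 0.00 and -0.14, in the opposite direction. The median length was 46770 bases for the 42 higher genes and 28758 bases for all expressed genes. With the median of its length bin taken off each gene, the medians were 0.73 for the cornified envelope, 0.26 for integrins, 0.29 for ephrins, 0.20 for remodellers, 0.13 for cohesin and 0.18 for numbered zinc finger genes. They were -0.50 for metallothioneins, -0.27 for the NRF2 system, -0.15 for antigen presentation and -0.09 for mitochondrial ribosomal proteins. Length ran against some groups: cornified envelope genes had a median length of 4737 bases and replication-dependent histone genes of 519 bases. The histone median, with H2AC8 included, was 0.24 once length was taken off. The part of gene length in the differences of single genes was not tested.

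**Figure D5:**
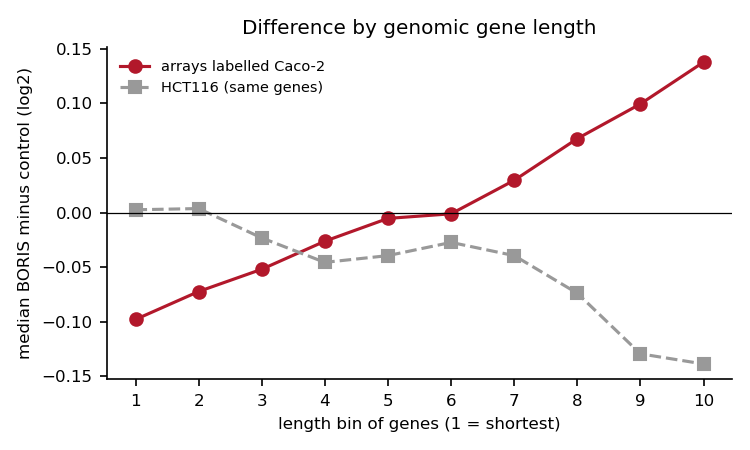
The median log2 difference, BORIS siRNA minus control siRNA, is plotted against 10 bins of the expressed genes of the cells labelled Caco-2 by genomic length, shortest first, for those cells (red circles) and for the same genes in HCT116 (grey squares). The red line runs from -0.10 to 0.14 and the grey line from 0.00 to -0.14.

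Genes that earlier work named as BORIS targets were mixed. Of 11 expressed, 3 were higher and 8 lower, with a median of -0.03. ALDH1A1 had the largest difference. PIM1, a kinase gene, read 7.43 and 6.93, the chromatin gene HMGA2 10.12 and 9.71, and the telomerase gene TERT 5.91 and 5.56. BRCA1 was higher, at 7.48 and 7.94. MYC differed by -0.01, and the germ-line antigen gene MAGEA4 and the protease gene PRSS50 were at background on both arrays. Imprinted genes, many controlled by CTCF sites, were split 7 higher to 6 lower, with a median of 0.03 that turned sign after quantile normalization, after the length correction and without a filter. GRB10 read 8.34 and 9.09, and PPP1R9A 7.15 and 7.85.

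Of 25 homologous recombination and Fanconi genes 17 were higher, with a median of 0.15, and in HCT116 the median was 0.16. ATM read 5.58 and 6.14, and RAD52 was lower, at 5.52 and 4.76, at background with BORIS siRNA. In cholesterol synthesis and its control 21 of 29 members were higher (median 0.15), with HMGCS1, which makes HMG-CoA, at 9.66 and 10.22. Proliferation genes were centred near 0, with 17 of 33 genes of G2/M and mitosis higher and a median of 0.02 that turned sign without _x_at and _s_at probe sets. BCL2 family genes were split 8 to 7, with a median of 0.02 that turned sign without _x_at and _s_at probe sets, after quantile normalization, after loess and after the length correction. Immediate early transcription factor genes had a median of 0.01, which turned sign when probe sets were averaged, after quantile normalization, with the probe set chosen on these arrays and without a filter.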

How the data were processed

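Total RNA of 4 cultures was measured on PrimeView arrays, 1 per group. The deposited values are log2 expression per probe set, as their range of 2.13 to 14.17 shows; how the authors corrected background, normalized and summarised them is not given in these sources. Of 49395 probe sets, 44988 are paired with 1 gene by the platform annotation, and 1832 with several, which were left unnamed. Values were compared with Python 3.11.15, pandas 2.3.3 and statsmodels 0.14.6. The arithmetic was tested on simulated data. Alternatives were other filters, raising dim values to background, other choices of probe sets, quantile normalization, a loess correction (fraction 0.3), adding 16 on the linear scale and subtracting the median of a gene's length bin (10 bins). Genomic lengths and promoters come from RefSeq; 10386 expressed genes had a length, and genomic length stands in for protein length, which was not used here. Named genes are CTCFL, CTCF, the top 20 per direction at 2-fold or more, and up to 4 members per list role by size of difference; others are remaining members of a group, or were chosen after their values were seen. Members and lists were chosen with earlier results of these data known.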

Additional observations from a re-analysis of the deposited data

Results flagged for a closer look

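Several groups of genes stood on opposite sides of 0 in the 2 lines, and these differences between lines were not tested, because each group holds 1 array. The medians, first in the cells labelled Caco-2 and then in HCT116, were 0.22 and -0.29 for adherens junction and desmosome genes, 0.14 and -0.13 for cholesterol synthesis enzymes, 0.19 and -0.36 for the regulation and uptake of cholesterol, and 0.23 and -0.27 for nucleosome remodellers. They were 0.14 and -0.11 for replication-dependent histone genes, 0.16 and -0.24 for semaphorins and their receptors, 0.27 and -0.33 for ephrins, 0.18 and -0.11 for ZBTB genes, and -0.12 and 0.17 for mitochondrial ribosomal protein genes. The histone median of 0.14 was 0.08 without H2AC8, which passed the filter with BORIS siRNA only. The longest of 10 length bins of genes stood at 0.14 and -0.14, and poly-A spike-ins at -0.06 and 0.82. Among single genes, the E-cadherin gene CDH1 differed by 0.63 and -0.60, the chemokine gene CXCL8 by 0.71 and -0.69 and the RNA-silencing gene TNRC6C by 0.59 and -0.96.

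Probe sets that are paired with several genes or with none were not used for genes. Of 1975 such probe sets at or above the array median, 8 were higher (0.405%) and 1 was lower (0.0506%) with BORIS siRNA at 2-fold or more. These shares are close to the 0.404% and 0.0481% of all expressed genes.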

How the results depend on the processing

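Every difference rests on 1 array per arm, the knockdown of CTCFL was not readable, and dim genes carry most of the larger differences. No array could be left out, since each group holds 1. No paired analysis was possible because the labels give no replicate numbers and each group holds 1 array. When all probe sets of a gene were averaged, 22 genes were higher at 2-fold or more, and 160 were higher and 60 lower at 1.5-fold or more. With 16 added on the linear scale, 15 were higher and 1 lower at 2-fold or more, and 187 and 58 at 1.5-fold or more. Without a filter, 9 were lower at 2-fold or more and 292 at 1.5-fold or more. Raising values to background gave 29 higher and 4 lower genes at 2-fold or more, and quantile normalization 37 and 5. Filtering on the mean of the 2 arrays gave 29 and 4. Of 114 list medians, those that moved by more than the robust spread of single genes (0.22) were nutrient transporters (0.13), coagulation and complement (0.35) and oncofetal genes (0.13) when probe sets were averaged, oncofetal genes without _x_at and _s_at probe sets (-0.36), and the cornified envelope without a filter (0.047). The cause of these shifts was not tested. A list median smaller than 0.22 can turn sign without counting as moved. The sign held in 93 of the 114 medians without _x_at and _s_at probe sets and in 95 after quantile normalization. It held in 96 with probe sets averaged, 96 without a filter and 97 after the length correction, and in 105 or more under the other settings. The 47 genes kept their direction under every setting that gave them a value, which leaves out the filters. They were picked for their size on these same values, and adding 16 cannot turn a sign. In these settings 9 of them, 8 higher and 1 lower, stayed at 2-fold or more. They were TCN1, SLC16A12, ZNF615, TUBA1A, SPRR1B, AKAP12, SEMA3A, SUCNR1 and ALDH1A1. SLC16A12 (4.56 and 6.23) does not pass the filter on the mean of the 2 arrays. TCN1, SLC16A12, SPRR1B and SUCNR1 have 1 probe set each, so the choice of probe sets could not change them. TUBA1A has only probe sets of the _x_at kind, so the setting without _x_at and _s_at probe sets gave it no value. The choice of the probe set on these 2 arrays only, the length correction and the filter on the mean were added after seeing the data. With the first, VCAN, SORBS2, SLC16A4 and PHACTR2 lay under 2-fold.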

Other observations

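WNT ligands and receptors were split, with 6 of 11 expressed members higher, 5 lower, and a median of 0.01 that turned sign after quantile normalization. MESD, a chaperone for the WNT co-receptors, read 8.24 with control and 9.16 with BORIS siRNA, but its 3 other probe sets differed by 0.13 to 0.63. The receptor gene FZD3 read 6.26 and 7.03, with its other 2 probe sets at 0.51 and 0.70. BAMBI, a decoy receptor of TGF-beta, was lower at 10.90 and 10.24. The stem cell genes LGR5 (7.25 and 6.97) and CD44 (11.57 and 11.53) differed less. In the WNT target and stem marker list 12 of 18 expressed members were lower, with a median of -0.06.

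Secreted and absorptive genes had single large differences in lists that were split or leaned the other way. The glucose transporter gene SLC2A2 read 6.75 and 7.51, while 7 of 11 expressed nutrient transporters were lower, with a median of -0.13. PROS1, the gene of protein S, read 8.74 and 9.39, while 3 of 5 coagulation and complement genes were lower, with a median of -0.07 that turned sign when probe sets were averaged and without _x_at and _s_at probe sets. APOH read 9.58 and 10.19, and of 6 expressed genes of apolipoproteins and their assembly 3 were higher and 3 lower. EPS8L3, a microvillus gene, read 6.94 and 6.02, and of 12 such genes 5 were higher and 7 lower. The glycolipid sialyltransferase gene ST3GAL5 read 6.18 and 5.38, and the folate receptor gene FOLR1 read 6.72 and 6.00, a difference of -0.73 that became 0.22 without _x_at and _s_at probe sets. Of TGF-beta genes, BMPR2 read 6.40 and 7.16, with its 2 other probe sets at 0.49 and 0.60, and SMAD4 read 8.45 and 7.74, with its 2 others at -0.87 and 0.48.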
